A study of Rattus norvegicus with 12 samples.

Results

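Transcripts of 5 glutamate receptor genes were examined in the CA1 pyramidal cell layer of chronically epileptic and control rats: Grin1, Grin2a, Grin2b, Gria1 and Grm5. They were chosen by their Ensembl identifiers, ENSRNOG00000011726 for Grin1, ENSRNOG00000033942 for Grin2a, ENSRNOG00000008766 for Grin2b, ENSRNOG00000045816 for Gria1 and ENSRNOG00000016429 for Grm5, and 5 of 5 had a row among the 32662 identifiers counted. The symbols come from the list that chose the genes, since the files name genes by identifier only. All 5 passed the filter on low counts.

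Fast excitation in the brain runs through ionotropic glutamate receptors. AMPA receptors, to which the Gria1 product GluA1 belongs, carry most of the current at resting potential. NMDA receptors open only when glutamate binds and the membrane is depolarised, and they admit calcium. Each NMDA receptor needs GluN1, the product of Grin1, and its kinetics depend on the partner subunit, such as GluN2A from Grin2a or GluN2B from Grin2b. Grm5 encodes mGlu5, a metabotropic receptor coupled to G proteins, which in CA1 lies mainly around the synapse.

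RNA was sequenced from adult male Wistar rats, labelled 45 to 50 days old, in 12 libraries. Epileptic rats had received hourly kainate, 5 mg/kg each, until status epilepticus, then diazepam, and were sampled 6 to 8 weeks later; seizures were documented in some of these animals only. Control rats had received vehicle, saline or DMSO, and otherwise like treatment. The superficial and the deep sublayer of CA1 were cut separately by laser from 20 µm sections of each of 3 epileptic and 3 control rats, giving 3 superficial epileptic, 3 deep epileptic, 3 superficial control and 3 deep control libraries. Reads counted in genes numbered 20623196 to 25893962 in epileptic and 16135358 to 19550582 in control libraries. The 5 genes had 5262 to 27414 counts each in every library. Alignments outside annotated exons made up 22.3 to 26.7% in epileptic animals 2 and 3, 37.7 and 43.0% in epileptic animal 1, and 35.8 to 44.0% in the control libraries. Libraries of epileptic animals 2 and 3 therefore stand apart from the other 8. They also had more alignments that were not unique, 37.9 to 45.6% against 25.2 to 34.8%. The most counted identifier took 18.7 to 22.8% of their gene counts, against 8.24 to 12.97% in control libraries. In epileptic animal 1 it took 16.6% in deep and 11.0% in superficial CA1. Identifiers other than the 5 carry no symbol here, so the labelled cell type could not be checked against marker genes, and fewer pyramidal cells in the cut tissue cannot be told apart from less RNA per cell.

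RefSeq's promoter table, build GRCr8, held a window of 300 bases for 2 of the 5 genes, Grin1 and Grm5. Both are shown, since none of the other genes had a window. Capitals mark matches, on either strand, to GGGCGG, the core of the GC box. They also mark those to GCGGGGGCG, an element read by zinc finger factors of the Egr type. The cAMP response element TGACGTCA was searched as well and is in neither window. The same holds for TATAAA, the core promoter element that positions transcription starts. The Grin1 window lies at chr3:28528705-28529004 on the minus strand at the gene's outermost annotated start, while the Grm5 window, chr1:150733503-150733802 on the plus strand, does not lie at that gene's outermost start.
Grin1: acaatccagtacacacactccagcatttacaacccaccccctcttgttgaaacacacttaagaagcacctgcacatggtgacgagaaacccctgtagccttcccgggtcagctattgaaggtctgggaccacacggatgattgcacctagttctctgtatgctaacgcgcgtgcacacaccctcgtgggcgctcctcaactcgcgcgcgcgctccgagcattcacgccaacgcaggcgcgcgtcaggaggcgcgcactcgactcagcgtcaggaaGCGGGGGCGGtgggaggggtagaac
Grm5: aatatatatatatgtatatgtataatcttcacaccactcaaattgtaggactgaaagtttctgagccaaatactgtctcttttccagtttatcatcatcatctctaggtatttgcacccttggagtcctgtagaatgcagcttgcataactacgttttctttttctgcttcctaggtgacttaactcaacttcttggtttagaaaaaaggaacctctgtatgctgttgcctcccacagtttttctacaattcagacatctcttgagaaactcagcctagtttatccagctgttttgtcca

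The Grin1 window holds 1 match to each of the first 2 motifs, and these overlap, whereas the Grm5 window holds none. Of the 33469 windows in the table, 33.1% hold GGGCGG, 2.73% hold GCGGGGGCG, 1.83% hold TGACGTCA and 14.2% hold TATAAA. G and C make up 59.7% of the Grin1 window and 37.3% of the Grm5 window, against a median of 51.7%, with 25 CpG dinucleotides in the Grin1 window, 1 in the Grm5 window and a median of 7. These are features of the reference sequence, and no binding was measured.

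Levels are given as CPM, a gene's counts relative to the library total, scaled between libraries by the TMM method. Read counts grow with transcript length, so levels are compared between libraries for 1 gene and not between genes.

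In both sublayers all 5 genes had lower mean levels in epileptic than in control rats. Fitted fold changes, epileptic over control, were 0.753 to 0.895, but no gene passed the test. Gria1 was lowest relative to control in deep CA1, at 0.780-fold, and Grin2a in superficial CA1, at 0.753-fold. No gene had an adjusted p below 0.05 by edgeR's quasi-likelihood test, which called 0.0140% of 14321 identifiers in superficial and 0% of 14261 in deep CA1. At an unadjusted p below 0.05 lay 5 of 5 genes in superficial CA1, against 18.9% of all identifiers, and 3 of 5 in deep CA1, against 13.7%. The epileptic and control libraries did not overlap, with the epileptic ones lower, for 5 of 5 genes in superficial CA1, against 13.0% of all identifiers, and for 4 of 5 in deep CA1, against 9.75%. The median log2 fold change of the 5 was −0.37 in superficial and −0.23 in deep CA1, where the medians over all identifiers were 0.00684 and 0.00093.

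**Figure D1:**
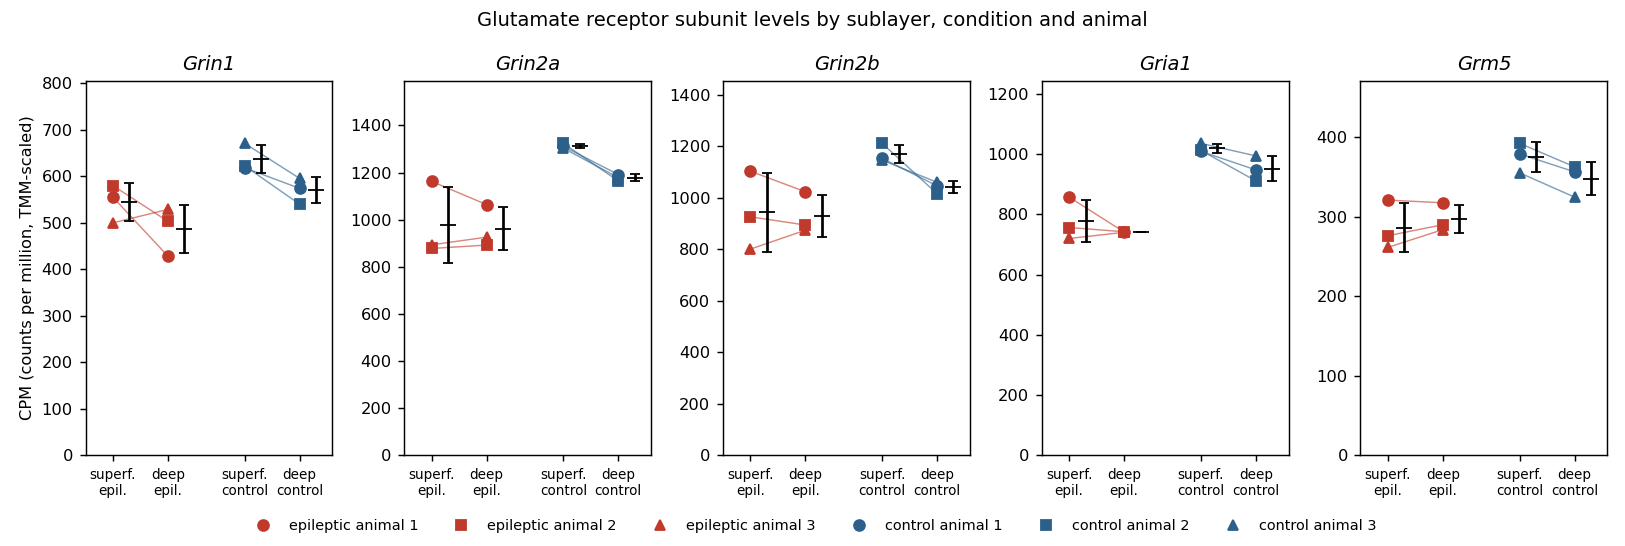
CPM of each gene in the 12 libraries, with superficial left of deep and epileptic (red) left of control (blue). Lines join the 2 libraries of an animal, marker shapes give the animal number, and black bars show the mean and SD of 3 libraries. The axes start at 0. Epileptic libraries sit below the control libraries of their sublayer, except for Grin2b in deep CA1, where epileptic animal 1 at 1023 CPM lies among the controls.

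Grin1, the subunit that every NMDA receptor contains, had 555, 580 and 499.8 CPM in superficial libraries of epileptic animals 1, 2 and 3, against 618, 623 and 671 CPM in those of control animals 1, 2 and 3. In deep libraries it had 428, 503 and 529 CPM in epileptic animals, against 574, 540.03 and 596 CPM in control animals. The groups did not overlap in either sublayer, and the lowest level of all 12 was that of deep CA1 in epileptic animal 1. The log2 fold change, epileptic over control, was −0.21 (SE 0.09, adjusted p = 0.259) in superficial and −0.23 (SE 0.10, adjusted p = 0.384) in deep CA1. Of the group means, superficial control (637 ± 29.2 CPM) was highest, then deep control (569.9 ± 28.01), superficial epileptic (545 ± 40.9) and deep epileptic (487 ± 52.2; SD, n = 3 each). The middle neighbours, deep control and superficial epileptic, lie within 1 SD of each other.

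Grin2a, whose product GluN2A gives fast-closing NMDA receptors typical of the mature forebrain, had 1162, 877 and 893 CPM in superficial libraries of epileptic animals 1, 2 and 3, against 1311, 1324 and 1303 CPM in control animals. In deep libraries the values were 1064, 892 and 925 CPM in epileptic animals, against 1192, 1164 and 1178 CPM in control animals. No epileptic value reached the lowest control value of its sublayer, and epileptic animal 1 was closest to it. The log2 fold change was −0.41 (SE 0.12, adjusted p = 0.173) in superficial and −0.29 (SE 0.10, adjusted p = 0.257) in deep CA1. The coefficient of variation was 16.4% in superficial and 9.50% in deep libraries of epileptic animals, against 0.797% in superficial and 1.16% in deep libraries of control animals, whose values lay close together. Superficial control (1313 ± 10.5 CPM) was the highest group and deep control (1178 ± 13.6) the next. Superficial (978 ± 160.1) and deep epileptic libraries (960.3 ± 91.2, SD, n = 3 each) had means within 1 SD between animals. The SD does not judge the sublayers, which are compared within animals below.

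Grin2b encodes GluN2B, the slower-closing subunit that dominates early in development. It had 1103, 926 and 800.3 CPM in superficial libraries of epileptic animals 1, 2 and 3, against 1153, 1212 and 1146 CPM in control animals. In deep libraries it had 1023, 894 and 874 CPM in epileptic animals, against 1046, 1016 and 1060.1 CPM in control animals. Of the 5 genes it was the only one whose epileptic and control libraries overlapped, which they did in deep CA1 through epileptic animal 1. The log2 fold change was −0.29 (SE 0.12, adjusted p = 0.243) in superficial and −0.16 (SE 0.09, adjusted p = 0.479) in deep CA1, and the 95% interval in deep CA1 ran from −0.37 to 0.05. Group means ran from superficial control (1170.3 ± 35.8 CPM) over deep control (1041 ± 22.7) to superficial (943 ± 152) and deep epileptic (930.5 ± 81.2, SD, n = 3 each). The means of the 2 epileptic groups lay within 1 SD between animals.

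Gria1, the AMPA receptor subunit whose delivery to CA1 synapses accompanies long-term potentiation, had 857, 756 and 719.8 CPM in superficial libraries of epileptic animals 1, 2 and 3, against 1009, 1013 and 1036 CPM in control animals. In deep libraries the epileptic animals had 741, 742 and 740.3 CPM, against 948, 911 and 994 CPM in control animals. The groups were well apart in both sublayers, and the 3 deep epileptic values were close together, with a coefficient of variation of 0.127%. The log2 fold change was −0.37 (SE 0.09, adjusted p = 0.129) in superficial and −0.36 (SE 0.08, adjusted p = 0.160) in deep CA1. Superficial control (1019 ± 14.5 CPM) was the highest group, then deep control (951 ± 41.6), superficial epileptic (778 ± 71.1) and deep epileptic (741 ± 0.942, SD, n = 3 each). The deep epileptic mean lay within 1 SD, between animals, of the superficial epileptic one.

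Grm5, the metabotropic receptor of the set, had 321, 276 and 262 CPM in superficial libraries of epileptic animals 1, 2 and 3, against 379, 393 and 355 CPM in control animals. In deep libraries it had 318, 290.05 and 284 CPM in epileptic animals, against 357, 363 and 325 CPM in control animals. The groups did not overlap, though deep CA1 of epileptic animal 1 came close to that of control animal 3. The log2 fold change was −0.37 (SE 0.10, adjusted p = 0.142) in superficial and −0.23 (SE 0.09, adjusted p = 0.327) in deep CA1. Superficial control (376 ± 18.8 CPM) led deep control (348 ± 20.4), followed by deep epileptic (297 ± 18.01) and superficial epileptic libraries (286 ± 31.03; SD, n = 3 each).

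With the counts of both sublayers added per animal, so that each animal enters once, the log2 fold changes were −0.22 for Grin1, −0.36 for Grin2a, −0.23 for Grin2b, −0.37 for Gria1 and −0.31 for Grm5 (3 epileptic against 3 control animals). Gria1 had the smallest adjusted p, 0.115 (SE 0.08), and Grin2b the highest, 0.271 (SE 0.10). None passed, where edgeR's quasi-likelihood test called 0.0325% of 15398 identifiers, and all 5 lay at an unadjusted p below 0.05, against 18.1% of all identifiers. The 5 genes did not overlap between the conditions in these sums, against 12.3% of all identifiers that were lower without overlap. These sums use the same libraries as the 2 sublayer tests.

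**Figure D2:**
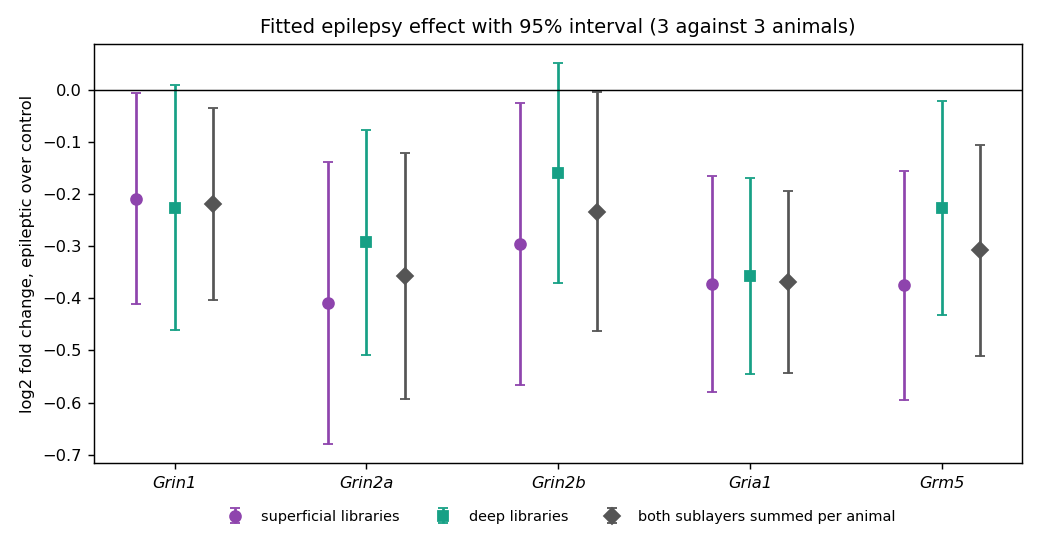
Log2 fold change, epileptic over control, for each gene in superficial libraries (circles), deep libraries (squares) and sums per animal (diamonds), with 95% intervals from the approximate SE. All 15 estimates lie below 0; the intervals of Grin1 and Grin2b in deep CA1 include 0, and none of the 15 passed after adjustment over all identifiers.

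The outcome of the epilepsy test depended on the tool. DESeq2 called Grin2a (log2 fold change −0.40, adjusted p = 0.0196), Gria1 (−0.37, adjusted p = 0.00173) and Grm5 (−0.37, adjusted p = 0.0107) as lower in superficial CA1 and, in deep CA1, Gria1 alone (−0.35, adjusted p = 0.0017). DESeq2 called 885 identifiers in superficial CA1, 6.43% of those it gave an adjusted p, and 376 in deep CA1, or 2.64%. Limma-voom with sample quality weights called Grin2a, Gria1 and Grm5 in both sublayers and Grin2b in superficial CA1. It called 1746 identifiers (12.2%) in superficial and 2125 (14.9%) in deep CA1. None of these tools called Grin1. With same-numbered epileptic and control animals as a block, edgeR called 239 identifiers (1.68%) in deep CA1 and none of the 5 genes, the nearest being Gria1 (−0.36, adjusted p = 0.0744). Without epileptic animal 1, the epileptic libraries left were those of animals 2 and 3, with 22.3 to 26.7% of alignments outside annotated exons. In control libraries this share was 35.8 to 44.0%, so condition and share cannot be told apart in that fit. There edgeR called 9.96% of 14492 identifiers in superficial and 3.82% of 14438 in deep CA1. Among them were 4 of 5 genes in superficial CA1 (Grin2a −0.54, Grin2b −0.41, Gria1 −0.44 and Grm5 −0.45, adjusted p = 0.0246 to 0.0329) and Grin2a in deep CA1 (−0.36, adjusted p = 0.0427; edgeR's quasi-likelihood test), and the deep log2 fold change of Grin1 was −0.13.

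The share of alignments outside annotated exons differed between libraries in part as these levels did. The deep epileptic libraries had shares of 43.0, 26.7 and 22.3% in animals 1, 2 and 3. Grin2a (1064, 892 and 925 CPM), Grin2b (1023, 894 and 874 CPM) and Grm5 (318, 290.05 and 284 CPM) were highest there in animal 1. Grin1 ran the other way (428, 503 and 529 CPM) and Gria1 was level (741, 742 and 740.3 CPM). In the superficial epileptic libraries every gene but Grin1 was highest in animal 1. Epileptic animals 2 and 3, with shares of 22.3 to 26.7%, were below the lowest control library of their sublayer in 10 of 10 values each (5 genes in 2 sublayers). Epileptic animal 1, with shares of 37.7 and 43.0%, like those of the controls, was below it in 9 of 10 values. The same count was not made over all identifiers, so these counts have no background to be read against. Relative to the control mean, the superficial library of epileptic animal 1 stood at −12.9% for Grin1, −11.5% for Grin2a, −5.75% for Grin2b, −15.9% for Gria1 and −14.5% for Grm5. Its deep library stood at −24.9% for Grin1, −9.70% for Grin2a, −1.66% for Grin2b, −22.1% for Gria1 and −8.76% for Grm5. With 1 such animal there is no test within that range of shares.

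When this share entered the fit as a covariate, no gene was called, and 9 of 10 estimates were nearer to 0. Only epileptic animal 1 had shares within the control range, so these estimates lean largely on that animal. In superficial CA1 the log2 fold change was −0.18 for Grin2a, −0.11 for Grin2b, −0.24 for Gria1 and −0.25 for Grm5, and that of Grin1 was −0.19. In deep CA1 it was −0.16 for Grin2a, −0.03 for Grin2b and −0.15 for Grm5, while that of Gria1 was −0.35 and that of Grin1, farther from 0, was −0.39. Because share and condition largely go together, this fit cannot decide the part of the share in the lower levels of epileptic rats. That part was not tested.

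**Figure D3:**
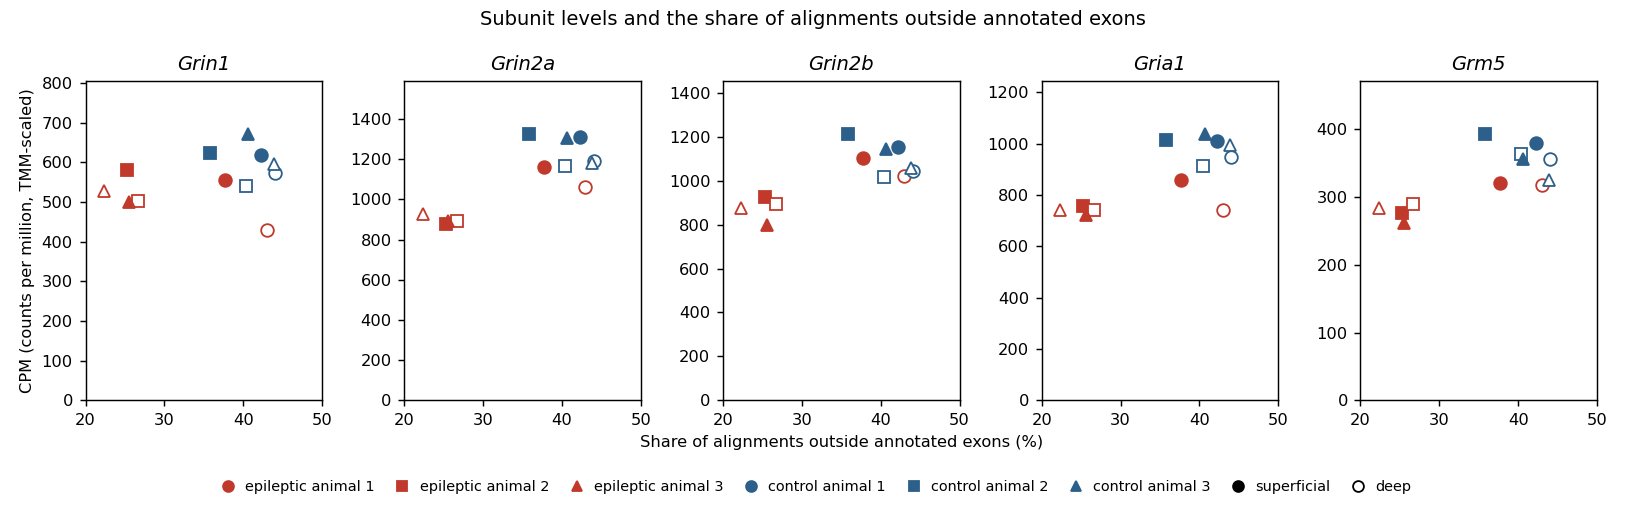
CPM of each gene (vertical axis, from 0) against the share of alignments outside annotated exons in the same library (horizontal axis, percent), with epileptic libraries in red, control libraries in blue, superficial filled and deep open. The libraries of epileptic animals 2 and 3 form a group at 22.3 to 26.7%; those of epileptic animal 1 lie at 37.7 and 43.0%, among the controls on the horizontal axis and, for Grin2a, Gria1 and Grm5, below every control library on the vertical one.

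**Figure D4:**
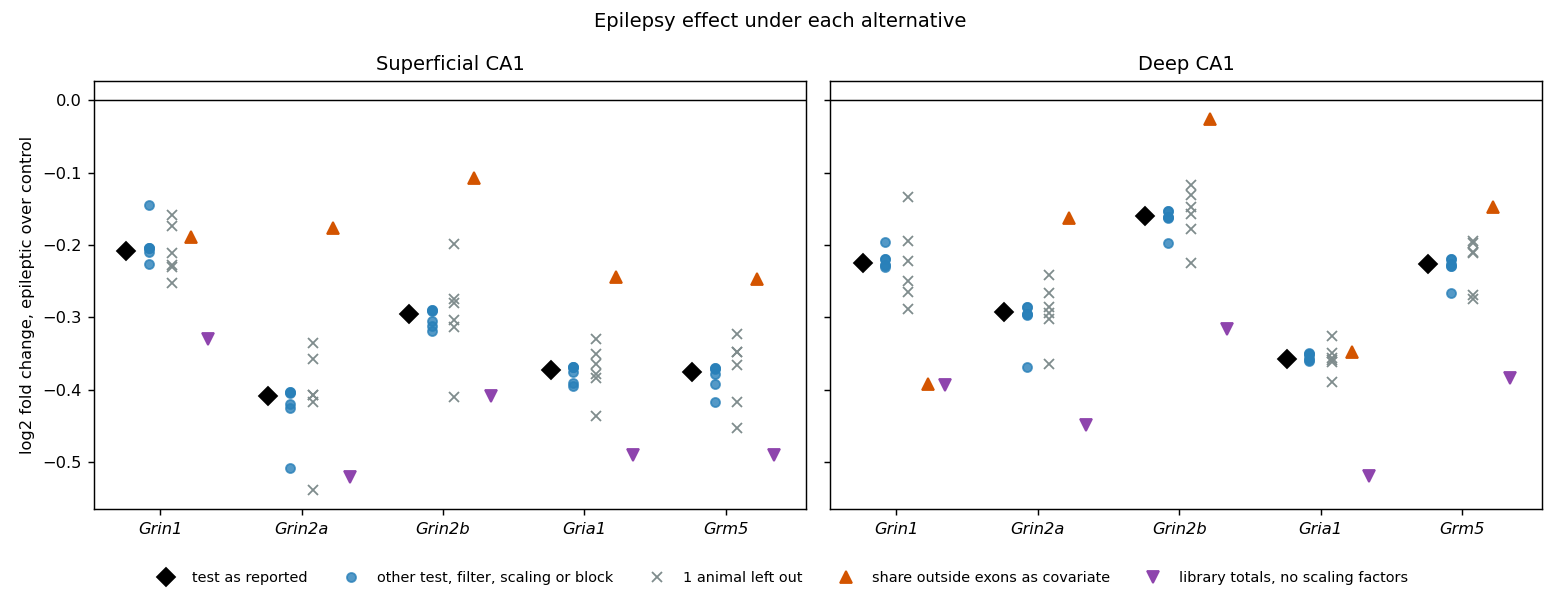
Log2 fold change, epileptic over control, of each gene in superficial (left) and deep CA1 (right): as reported (diamonds), under other tests, filters, scalings or blocks (circles), without 1 animal (crosses), with the share of alignments outside exons in the fit (triangles up) and with library totals and no scaling factors (triangles down). All values lie below 0, the nearest being Grin2b in deep CA1 with the covariate, at −0.03.

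In epileptic rats the superficial minus deep differences in log2 CPM varied between animals in size and sign. Grin1 differed by 0.37, 0.20 and −0.08 in epileptic animals 1, 2 and 3 (log2 fold change 0.17, SE 0.07, adjusted p = 0.128), an average like that of control animals. The other 4 genes were near 0 on average, at 0.02 for Grin2a (95% interval −0.09 to 0.12), 0.01 for Grin2b (−0.10 to 0.12), 0.07 for Gria1 (−0.05 to 0.18) and −0.06 for Grm5 (−0.16 to 0.04). In epileptic animal 3 all 5 genes were lower in the superficial library, with Grin2b at −0.13 and Grm5 at −0.12 the farthest from 0, and in epileptic animal 1 all 5 were higher there. Shares of all identifiers were not computed for single animals, so these counts have no background to be read against. None of the 5 had 1 direction in all 3 epileptic animals, where 21.0% of all identifiers were higher and 21.0% lower in all 3. EdgeR called 10% of 14791 identifiers in this comparison and none of these genes, with Grin1 alone at an unadjusted p below 0.05 (25.9% of all identifiers). DESeq2 called 0 of the 5, against 6.49% of the identifiers it gave an adjusted p. Without epileptic animal 3 the difference of Grin1 was 0.29 and passed (adjusted p = 0.00148), where edgeR called 14.97% of all identifiers. Limma-voom with sample quality weights, which called 17.8% of all identifiers, called it with all animals (0.18, adjusted p = 0.0119).

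In control rats all 5 had slightly higher mean levels in superficial libraries, and were higher there in each of 3 animals. Fitted fold changes, superficial over deep, were 1.07 (Gria1) to 1.124 (Grin2b). Of all identifiers, 25.9% were higher and 23.1% lower in all 3 control animals. None passed the within-animal test of edgeR, which called 8.44% of 14791 identifiers. At an unadjusted p below 0.05 lay 4 of 5 genes, against 22.8% of all identifiers. DESeq2 called 0 of the 5, against 6.38% of the identifiers it gave an adjusted p.

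The superficial minus deep difference in log2 CPM was 0.14, 0.19 and 0.15 for Grin2a in control animals 1, 2 and 3 (log2 fold change, superficial over deep, 0.16, SE 0.05, adjusted p = 0.0617). For Grin2b it was 0.14, 0.25 and 0.11 (0.17, SE 0.05, adjusted p = 0.0644). These NMDA receptor partner subunits came nearest to the threshold. Grin1 differed by 0.11, 0.21 and 0.17 (0.16, SE 0.07, adjusted p = 0.156), Gria1 by 0.09, 0.15 and 0.06 (0.10, SE 0.05, adjusted p = 0.275) and Grm5 by 0.09, 0.11 and 0.13 (0.11, SE 0.05, adjusted p = 0.178). Grin1, Grin2a and Grin2b were called when only the control libraries were fitted (adjusted p = 0.00923 to 0.0121), a fit that called 16.8% of all identifiers. They were also called without epileptic animal 1 or 3, whose libraries share the estimate of the spread, where 13.3% of all identifiers were called without animal 1 and 13.98% without animal 3. Limma-voom with sample quality weights called these 3 and Grm5, among 17.3% of all identifiers.

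**Figure D5:**
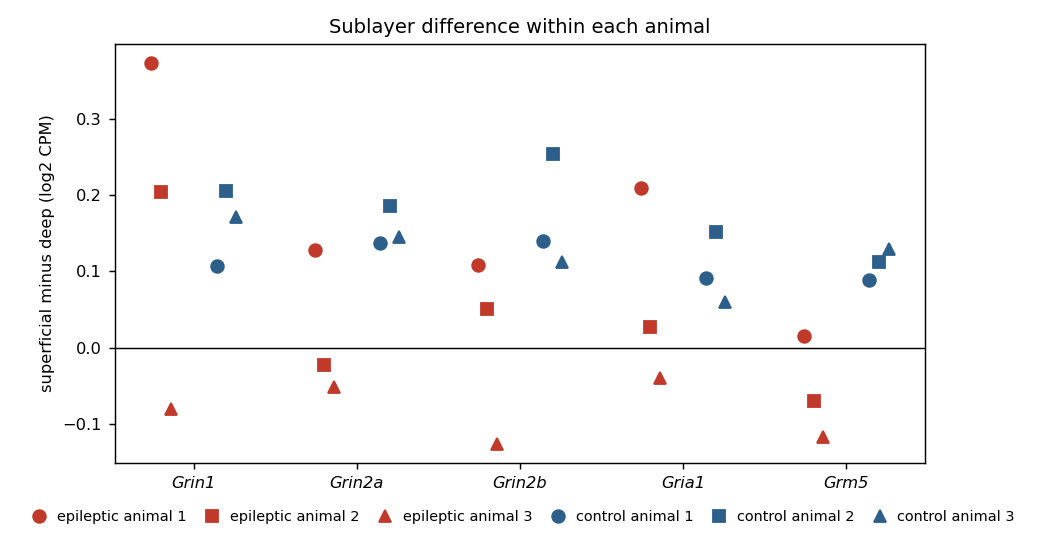
Superficial minus deep difference in log2 CPM within each animal, epileptic animals in red left of control animals in blue, with marker shapes for the animal number. All 15 control values lie above 0, between 0.06 and 0.25, while the epileptic values run from −0.13 to 0.37 and order by animal, with animal 1 highest and animal 3 lowest for each gene.

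The change of the superficial excess with epilepsy was tested as an interaction. Grm5 had the largest estimate, −0.17 (SE 0.07, 95% interval −0.31 to −0.02, adjusted p = 0.723), followed by Grin2b at −0.16 (SE 0.08, adjusted p = 0.762) and Grin2a at −0.14 (SE 0.07, adjusted p = 0.775). Gria1 was at −0.04 (SE 0.07) and Grin1 at 0.00483 (SE 0.09, 95% interval −0.20 to 0.20). Negative values mean a smaller superficial excess in epileptic rats. EdgeR's quasi-likelihood test called 0% of 14791 identifiers, with 6.60% at an unadjusted p below 0.05, Grm5 alone among the 5. DESeq2 called 2 identifiers and limma-voom 106, none of them among the 5 genes.

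Ratios of 2 genes within a library do not depend on how libraries are scaled, though they are ratios of reads and not of molecules. The ratio of Grin2a to Grin2b counts was 1.05, 0.948 and 1.116 in superficial and 1.04, 0.997 and 1.06 in deep libraries of epileptic animals 1, 2 and 3, against 1.14, 1.09 and 1.14 in superficial and 1.14, 1.15 and 1.11 in deep libraries of control animals. It was thus lower in epileptic animals 1 and 2 than in any control library, and in animal 3 only in deep CA1. Averaged over an animal's sublayers, the log2 ratio was 0.05 ± 0.08 in epileptic rats and 0.17 ± 0.01 in control rats (SD over 3 animals each), a difference of −0.12 with p = 0.1 in a two-sided exact permutation test, the smallest value that 3 against 3 animals allow, and an adjusted p of 0.2 over 4 ratio tests. Between sublayers, superficial minus deep, it differed by −0.003 ± 0.059 (SD, n = 6) and was higher in 3 of 6 animals, with p = 0.9375 (adjusted p = 0.9375) when signs were flipped in an exact two-sided permutation test.

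The ratio of Gria1 to Grin1 counts was 1.54, 1.30 and 1.44 in superficial and 1.73, 1.48 and 1.40 in deep libraries of epileptic animals 1, 2 and 3, against 1.63, 1.63 and 1.54 in superficial and 1.65, 1.69 and 1.67 in deep libraries of control animals. It was lower in epileptic animals 2 and 3 than in every control library, and deep CA1 of epileptic animal 1 had the highest ratio of all. Per animal, the log2 ratio was 0.56 ± 0.13 in epileptic rats and 0.71 ± 0.02 in control rats (SD over 3 animals each; difference −0.15, two-sided exact permutation test, p = 0.2, adjusted p = 0.267). Superficial minus deep, it differed by −0.08 ± 0.09 and was lower in superficial CA1 in 5 of 6 animals, with p = 0.09375 (SD, n = 6; adjusted p = 0.2) in the same exact test.

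Across the 12 libraries, which are pairs from 6 animals in 2 conditions, log2 CPM of the genes correlated to different degrees. Pearson's r was 0.94 between Grin2a and Grm5, 0.94 between Grin2a and Grin2b and 0.93 between Grin2a and Gria1. Grin1 was the least alike, with r of 0.54 to Grm5, 0.60 to Grin2b, 0.61 to Grin2a and 0.81 to Gria1. Among 9396 identifiers of a mean log2 CPM of at least 3, the one most like each gene had r of 0.955 (Grin1) to 0.986 (Gria1). That of Gria1 was ENSRNOG00000016877 and that of Grm5 ENSRNOG00000004137, both at 0.986, and the files give neither a name. These values describe libraries that share animals and conditions, and no test was made of them.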

How the data were processed

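Raw counts of reads per Ensembl gene identifier were deposited by the authors, 1 table per library and not normalized. Tools named in the submitters' processing notes are HTSeq 0.6.1, SAMtools 0.1.19, STAR 2.5.0c and FastQC 0.11.3, with the build Rnor_6.0. Strand use and annotation release are not given in the sources used here; without strand, antisense or overlapping genes cannot be told apart. The 5 summary tallies of each table were left out of library sizes. The test was that of edgeR 4.0.16 under R 4.3.3: filterByExpr (minimum count 10, minimum total 15), TMM scaling, and the quasi-likelihood test with robust dispersions, with Benjamini-Hochberg adjustment over all identifiers tested and a threshold of 0.05. Sublayers were compared within animals in 1 model of 12 libraries with a term per animal, and epilepsy as 3 against 3 animals. The SE is the absolute log2 fold change divided by the square root of F, an approximation, and 95% intervals use it. Log2 CPM used a prior count of 2.

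Libraries were grouped by their titles, and the 2 libraries of a condition with 1 replicate number were taken as 1 animal. Deviations from group means correlated within all 6 animals (r = 0.32 to 0.77). Control and epileptic animals of 1 number are different animals; between them r was 0.21, 0.0025 and 0.17 for superficial libraries, and 0.22, 0.10 and 0.24 for deep ones. The epilepsy tests as reported have no block; since r was over 0.1 for all deep pairs, the blocked result is given beside the deep one. No libraries of the same sublayer and condition were duplicates (chi-square per identifier 7.01 to 122). Libraries of different groups were not compared in this way.

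The genes, tests and alternatives were chosen with earlier results of these data known. All 5 genes are named whatever their values, with the identifier most like each; of these only 2 are printed. No identifier could be paired with a symbol by the RefSeq table (0 of 32662 matched), so other glutamate receptor genes and cell type markers were not analysed here. Alternatives used DESeq2 1.42.0 and limma 3.58.1. Only the edgeR tests as reported were first run on simulated data, and not the alternatives or the ratio tests. Promoter windows are RefSeq's.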

Additional observations from a re-analysis of the deposited data

How the results depend on the processing

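All 205 re-estimates of the epilepsy effects (5 genes, 3 comparisons) kept their negative sign. They refit the same 12 libraries and are not independent of each other, and the same count was not made over all identifiers. With library totals and no scaling factors, chosen after seeing the data, the median of all identifiers lay at −0.12 in superficial and −0.16 in deep CA1, and that of the 5 genes at −0.49 in superficial and −0.39 in deep CA1. The cause of the changes below was not tested. Of the 5 genes, 0 were called as reported in each comparison. Percentages in brackets give the share of all identifiers called in the same fit, for DESeq2 of those given an adjusted p. Superficial against deep, in epileptic rats 1 gene was called (Grin1) with no filter (8.99%), with limma-voom (17.8%) and with library totals (17.7%). Without 1 animal 0 to 1 were called (3.59 to 14.97%). In control rats 3 were called with no filter on low counts (8.06%), 4 with limma-voom (17.3%), 2 with library totals (10.1%) and 3 with the control libraries alone (16.8%). Without 1 animal 0 to 3 were called there (2.76 to 13.98%). For epilepsy, DESeq2 called 3 in superficial CA1 (6.43%), 1 in deep CA1 (2.64%) and 3 in the sums per animal (6.61%). In the same order limma-voom called 4 (12.2%), 3 (14.9%) and 4 (16.1%). The fit of all 12 libraries, which had no term for the animal and so took the 2 libraries of an animal as independent, called 1 in superficial CA1 (1.89%). Leaving out 1 animal gave 0 to 4 in superficial CA1 (0 to 9.96%), 0 to 1 in deep CA1 (0 to 3.82%) and 0 to 4 in the sums (0 to 9.05%). Signs turned for the following values. In epileptic rats, superficial over deep, Grin2a was −0.00489 with limma-voom and −0.0386 to 0.0507 without 1 animal, Grin2b −0.00429 with the epileptic libraries alone and −0.0391 to 0.0778 without 1 animal, Gria1 −0.0076 to 0.117 without 1 animal, and Grm5 0.0257 with library totals. For the difference between conditions, Grin1 was −0.00179 with no filter and −0.10 to 0.13 without 1 animal, and Gria1 0.0203 with library totals and −0.11 to 0.0199 without 1 animal. With the replicate block no gene was called in any epilepsy comparison; in deep CA1, where the numbers go together weakly, the adjusted p of Gria1 was 0.0744 at −0.36, and without the replicate block no gene was called between sublayers. Over all identifiers, calls ranged from 5 to 2636 (epileptic rats) and 5 to 2554 (control rats) between sublayers, from 0 to 178 for the difference, and from 0 to 1746, 2125 and 2479 for epilepsy in superficial CA1, deep CA1 and the sums. The log2 ratio of Grin2a to Grin2b, superficial minus deep, was −0.0186 to 0.0112 without 1 animal, so its sign turned. Epileptic minus control, it was −0.08 without epileptic animal 2 (−0.12 with all), and that of Gria1 to Grin1 was −0.22 without epileptic animal 1 (−0.15 with all; exact permutation p = 0.1, the smallest possible).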
